A study of Mus musculus with 12 samples.

Results

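The comparison described here sets the renal cortex of ICGN mice against that of ICR mice, at 4 weeks of age, the younger of the ages sampled in a study of a hereditary kidney disease. It was taken from the sample titles and holds 6 of the 12 arrays of the series, 3 labelled as ICGN renal cortex and 3 as ICR renal cortex, all at 4 weeks. The ICGN (ICR-derived glomerulonephritis) strain is labelled with the phenotype nephrotic syndrome, and ICR carries the label normal. ICGN mice are known to carry a mutation of Tns2, whose product tensin 2 links integrins to the actin skeleton in podocytes and other cells. The same strains at 8 weeks, with 3 arrays each, are used only to ask whether a difference seen at 4 weeks was seen again. The labels name no treatment and do not give the sex of the mice. The labels number the replicates but do not say how many mice gave each RNA, so the p-values reflect only how far these samples scatter, which may be technical. The strains can differ at many genes beside Tns2, and strain background and disease cannot be told apart in this design.

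Podocytes and the basement membrane beneath them keep plasma protein out of the urine, and loss of that barrier is nephrotic syndrome. Filtered protein then reaches the proximal tubule, which takes it up by endocytosis. Injured tubule cells are known to make surface and secreted markers such as Havcr1 and Lcn2 and to release chemokines that draw in monocytes, and antigen presentation and matrix genes are commonly raised in kidneys with chronic proteinuria.

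Total RNA was labelled with biotin and read on Affymetrix Mouse Genome 430 2.0 arrays, which measure a transcript by sets of short probes near its 3' end. The deposited medians of these arrays were 17.4 to 19.03, and each array was brought to a common median of 40.4. Signals below are on that scale, in the order of replicates 1, 2 and 3. Fold changes are differences of log2(signal + 9), ICGN minus ICR, relative to the median gene, with the standard error (SE) of the fit and 3 arrays a group. Principal component 1 of the 6 arrays, with 41.2% of their variance, set the strains apart. The ratio of 3' to 5' probe sets of the actin control, a sign of RNA integrity, was 1.40 ± 0.077 in ICGN and 1.39 ± 0.051 in ICR (SD, n = 3). The 18S ribosomal control read 269 ± 21.7 in ICGN and 397 ± 17.5 in ICR, and its part in the results was not tested. Defining transcripts of cortex were present on every array: Kap, of the proximal tubule, read 15845, 17276 and 19859 in ICGN against 21077, 18365 and 19856 in ICR, and Nphs1, of podocytes, 190.4, 199.8 and 162 in ICGN against 166, 139 and 162 in ICR.

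Of 12385 genes tested, 198 were called higher in ICGN (1.6%) and 171 lower (1.38%), 369 in all (2.98%), at an adjusted p of 0.05 or less from limma. Most differences were small. The quartiles of all genes were -0.14 and 0.15 on the log2 scale, 88 called genes were at least 1 above ICR (0.711% of genes) and 57 at least 1 below (0.46%). The groups did not overlap for 1332 genes with ICGN higher (10.8%) and 1489 with ICGN lower (12%), and in all 369 called genes the 3 ICGN arrays lay apart from the 3 ICR arrays. Leaving out ICGN replicate 2 reduced the calls to 89 higher and 79 lower, ICGN replicate 1 to 103 and 92, ICGN replicate 3 to 130 higher, ICR replicate 2 to 113 higher and ICR replicate 3 to 105 lower. Of the called genes 131 stayed called whichever of the 6 arrays was left out. A called gene described below belongs to those 131 unless the array on which its call rests is named. Counts over a list include each member, and some genes stand in more than 1 list, such as Ctss, Cd14, Ccl5 and the C1q genes. Where no share stands beside a list's counts, those of all genes given here are the ones to compare with. At 8 weeks 8.51% of all genes were called higher and 26% lower.

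**Figure D1:**
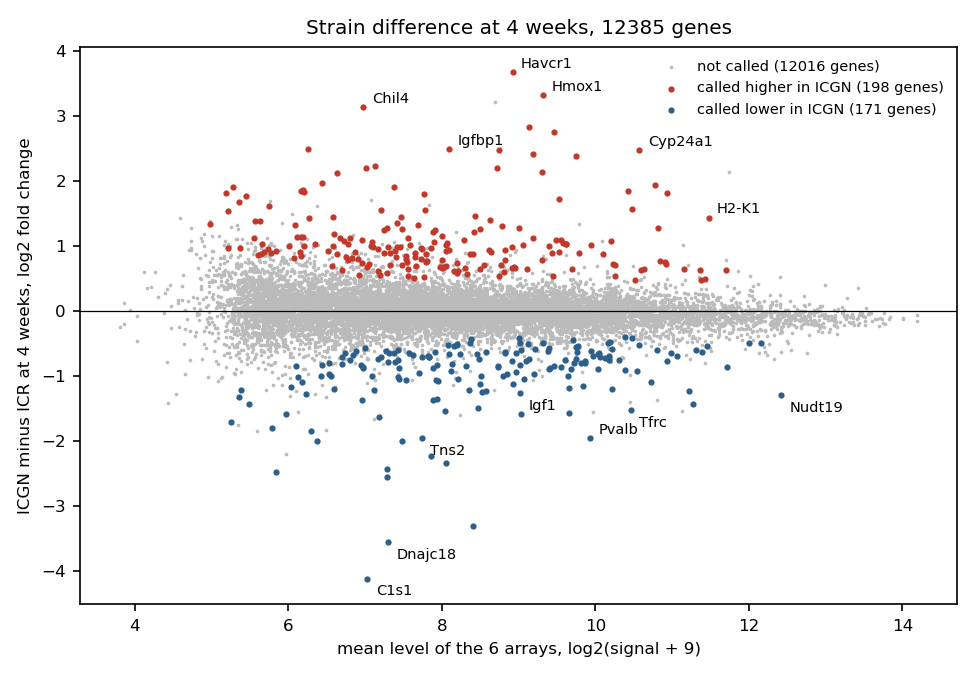
Each point is 1 of 12385 genes, with the mean level of the 6 arrays on the x axis, log2(signal + 9), and the log2 fold change of ICGN over ICR at 4 weeks on the y axis. The 198 genes called higher are red, the 171 called lower are blue, and Havcr1 (3.68) and C1s1 (-4.12) stand at the ends.

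The gene mutated in ICGN was itself lower in expression. Tns2 read 96.2, 71.8 and 66.5 in ICGN against 318, 334 and 343 in ICR, a log2 fold change of -1.96 ± 0.22 (adjusted p = 0.000199), or 3.9-fold lower. The strains lay far apart, with ICGN at 96.2 or less and ICR at 318 or more. Among 18 tested genes of tensins and focal adhesion adaptors Tns2 was the 1 called gene, and the list median was -0.02. The other tensins did not pass the test: Tns1 was at 0.02 ± 0.11 (adjusted p = 0.998) and Tns3 at -0.30 ± 0.13 (adjusted p = 0.245). Of the 10 tested genes on each side of Tns2 in chromosome order, 1 was called, Krt18, a keratin of simple epithelia, at 0.91 ± 0.19 (adjusted p = 0.0153; lost without ICGN replicates 1 or 2 or ICR replicate 3, highest adjusted p = 0.088). It read 597, 561 and 382 in ICGN against 285, 312 and 215 in ICR, while its partner keratin Krt8, next to it, was at 0.10 ± 0.15 (adjusted p = 0.87). The nearest neighbours of Tns2, Eif4b (-0.04) and Spryd3 (0.24), were not called.

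Among 22 podocyte genes 1 was called higher and 0 lower, beside 1.6% and 1.38% of all genes. In 8 of the 22 ICGN lay above ICR on every array and in 0 below, beside 10.8% and 12% of all genes. The list median was 0.25, with 15 members above 0. The called gene was Sema3g, a secreted semaphorin made by podocytes, which read 1065, 913 and 1143 in ICGN against 399, 563 and 591 in ICR (1.03 ± 0.18, adjusted p = 0.00533). Nphs1 (nephrin, 0.24 ± 0.14, adjusted p = 0.504), Podxl (podocalyxin, 0.26 ± 0.11, adjusted p = 0.304) and Wt1 (-0.04 ± 0.23, adjusted p = 0.951) did not pass. Synpo, which encodes the actin-binding synaptopodin, missed the threshold at 0.53 ± 0.15 (adjusted p = 0.0836). Of 7 genes of the parietal epithelium, the lining of Bowman's capsule, Cd44 was called. None of 18 genes of the glomerular basement membrane, 15 mesangial genes or 19 endothelial genes was called. Their medians were -0.06, 0.14 and -0.02 in that order. With so small a share of all genes called, lists of this size can hold no call. At 8 weeks 5 of the podocyte genes were called higher and 1 lower, and 15 of the endothelial genes lower, against 8.51% of all genes called higher and 26% lower at that age.

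The endothelin receptor B gene was higher, as was that of a ligand. Ednrb read 1417, 1186 and 1322 in ICGN against 586, 697 and 661 in ICR, at 1.02 ± 0.13 (adjusted p = 0.000812). Edn1, which encodes the peptide endothelin 1, was at 1.14 ± 0.26 (adjusted p = 0.0249; lost without ICGN replicates 1, 2 or 3 or ICR replicates 2 or 3, highest adjusted p = 0.107). Pappa2, a protease that frees insulin-like growth factors from their binding proteins, read 135, 147 and 106 in ICGN against 24.7, 31.6 and 23.8 in ICR (1.97 ± 0.24, adjusted p = 0.00046), and its ICR arrays were at or below their array median. Lama3, a laminin chain, read 233, 230.1 and 398 in ICGN against 142, 99.3 and 84.8 in ICR (1.33 ± 0.23, adjusted p = 0.00522).

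Some tubular injury markers were higher in ICGN at 4 weeks. Of 23 tested, 6 were called higher and 0 lower, beside 1.6% and 1.38% of all genes. In 15 of the 23 ICGN lay above ICR on every array and in 0 below, beside 10.8% and 12% of all genes. The list median was 0.48, with 20 members above 0. Havcr1, kidney injury molecule 1 of the proximal tubule, read 633, 752 and 1298 in ICGN against 49.7, 63.8 and 65.04 in ICR. This was the largest rise of any tested gene that was called (3.68 ± 0.36, adjusted p = 8.03e-05), 12.8-fold, and ICGN replicate 3 was the highest array. Its neighbour Timd2, a receptor of the same family, read 371, 380.4 and 730.3 in ICGN against 264, 105 and 163 in ICR (1.47 ± 0.29, adjusted p = 0.0111; lost without ICR replicate 2, adjusted p = 0.0542; also with the mean of its probe sets, adjusted p = 0.185). Lcn2, the secreted siderophore carrier lipocalin 2, read 114, 94.3 and 106 in ICGN against 19.1, 35.9 and 16.4 in ICR (1.86 ± 0.34, adjusted p = 0.00734). No ICR array held Lcn2 above its median, so how large that rise is depends on the offset of 9, and the call was lost without an offset (adjusted p = 0.152). Cd44, the hyaluronan receptor, read 121, 110.0 and 162 in ICGN against 60.02, 51.4 and 54.97 in ICR (1.12 ± 0.18, adjusted p = 0.00363), with every ICGN array above the highest ICR array. Tnfrsf12a, the receptor for the cytokine TWEAK, was at 1.10 ± 0.20 (adjusted p = 0.0083; lost without ICGN replicate 2, adjusted p = 0.0506), and the adhesion molecule Icam1 at 0.69 ± 0.17 (adjusted p = 0.0404; lost without ICGN replicates 1, 2 or 3 or ICR replicates 2 or 3, highest adjusted p = 0.14).

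Several familiar markers had not passed. Vcam1 was at 1.05 ± 0.28 (adjusted p = 0.0597), Timp1 at 1.11 ± 0.32 (adjusted p = 0.0832), Clu (clusterin) at 0.48 ± 0.22 (adjusted p = 0.345) and the repair factor Sox9 at 0.02 ± 0.49 (adjusted p = 0.998). At 8 weeks 20 of the 23 markers were called higher, against 8.51% of all genes, with a list median of 1.40. Of epithelial structural genes, Cldn4, a tight junction claudin of the distal nephron, was higher (0.94 ± 0.16, adjusted p = 0.00561), and it read 330.1, 395 and 324 in ICGN against 167, 183 and 189.7 in ICR. The intermediate filament gene Vim read 1950.4, 1864 and 1789.7 in ICGN against 1275, 1238 and 1145 in ICR (0.63 ± 0.12, adjusted p = 0.00909; lost without ICGN replicate 1, adjusted p = 0.0542; also with the mean of its probe sets, adjusted p = 0.17). The annexins Anxa1 (0.89 ± 0.15, adjusted p = 0.00398) and Anxa3 (0.78 ± 0.16, adjusted p = 0.0129; lost without ICGN replicates 2 or 3 or ICR replicate 3, highest adjusted p = 0.0569), which bind membranes in the presence of calcium, were higher too, while Anxa2 was at 0.21 ± 0.14 (adjusted p = 0.597).

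**Figure D2:**
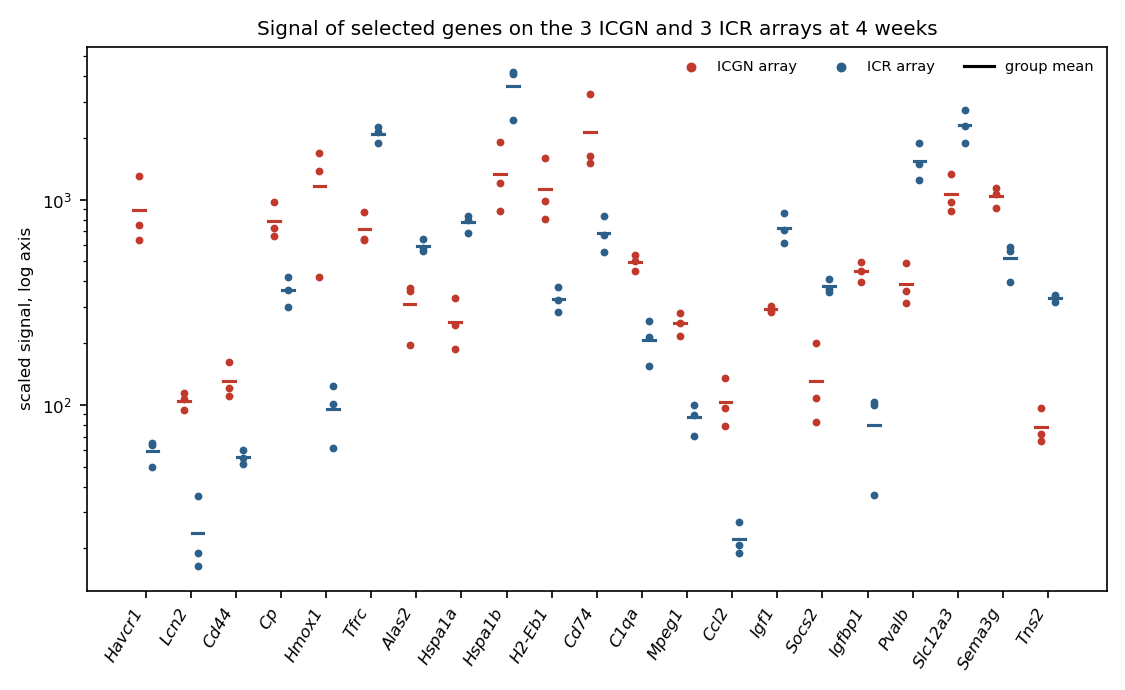
Scaled signal, on a log axis, of 21 genes on the 3 ICGN arrays (red points) and 3 ICR arrays (blue points) at 4 weeks, with a bar at each group mean. The groups do not overlap in any of these genes, from Havcr1 (633 or more against 65.0 or less) to Tns2 (96.2 or less against 318 or more), and Hmox1 shows the widest ICGN spread on this log axis, with replicate 3 at 419.

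Genes of heme and iron changed in both directions. Of 21 tested, 4 were called higher and 3 lower. Hmox1, which encodes the enzyme that opens the heme ring and releases iron, read 1374, 1694 and 419 in ICGN against 123, 61.6 and 101 in ICR. The ICGN arrays were spread, with replicate 3 lowest, yet all lay above the highest ICR array (3.33 ± 0.40, adjusted p = 0.00046). The ferroxidase ceruloplasmin gene Cp read 730.3, 663 and 978 in ICGN against 299, 422 and 364 in ICR (1.12 ± 0.19, adjusted p = 0.0039). Tfrc, the transferrin receptor by which cells import iron, went the other way and read 869, 641 and 638 in ICGN against 2266, 1883 and 2130.4 in ICR (-1.53 ± 0.13, adjusted p = 2.2e-05). The 3 control probe sets for the same transcript gave 84.6 against 246, 35.1 against 84.5 and 22.3 against 66.9 in ICGN and ICR.

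The heme-making enzymes were split as well. Alas2, the erythroid form of the first enzyme of heme synthesis, read 371, 359 and 196 in ICGN against 646, 560.0 and 582 in ICR (-0.96 ± 0.19, adjusted p = 0.0108). The housekeeping form Alas1 was at -0.75 ± 0.19 (adjusted p = 0.0359; lost without ICGN replicates 1 or 2 or ICR replicates 2 or 3, highest adjusted p = 0.183; also with the mean of its probe sets, adjusted p = 0.14). Cpox, a later enzyme of the pathway, was higher (1.04 ± 0.22, adjusted p = 0.0197; lost without ICGN replicates 1, 2 or 3 or ICR replicate 3, highest adjusted p = 0.0844; also with the mean of its probe sets, adjusted p = 0.337). The 4 tested blood and erythroid genes summed to between 619 and 999.6 in ICGN and between 1030.2 and 1175 in ICR, and their part in the Alas2 result was not tested. Hfe, a regulator of iron uptake that was not in the list, was at 0.68 ± 0.15 (adjusted p = 0.0276; lost without any 1 of the 6 arrays, highest adjusted p = 0.099).

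NRF2 is the transcription factor of the antioxidant response. Of 25 tested targets 2 were called higher and 0 lower, beside 1.6% and 1.38% of all genes. The 2 were Hmox1 and the glutathione transferase Gsta4 (0.90 ± 0.19, adjusted p = 0.02; lost without ICGN replicates 1 or 2 or ICR replicates 1 or 2, highest adjusted p = 0.118). In 10 of the 25 ICGN lay above ICR on every array and in 0 below, beside 10.8% and 12% of all genes. The list median was 0.23. Nqo1, a standard reporter of the pathway, was at 0.42 ± 0.16 (adjusted p = 0.226). Of other reductases, Akr1c19 read 1051, 1105 and 756 in ICGN against 177, 144 and 208 in ICR, well apart on every array (2.42 ± 0.24, adjusted p = 8.03e-05). Its chromosomal neighbours Akr1c12 (1.28 ± 0.28, adjusted p = 0.0212; lost without ICGN replicates 1 or 2 or ICR replicate 2, highest adjusted p = 0.118) and Akr1c13 (0.97 ± 0.23, adjusted p = 0.0384; lost without ICGN replicates 1 or 2 or ICR replicates 1 or 2, highest adjusted p = 0.171) were also called, and the sequences of this family are close enough that probes may be shared.

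Some chaperones were lower in ICGN. Of 25 heat shock proteins and co-chaperones 5 were called lower and 0 higher, beside 1.38% and 1.6% of all genes. In 10 of the 25 ICGN lay below ICR on every array and in 2 above, beside 12% and 10.8% of all genes. The list median was -0.11. The count called lower was 3 without ICGN replicate 1, ICGN replicate 3, ICR replicate 2 or ICR replicate 3. Hspa1a, the stress-induced Hsp70, read 330.4, 246 and 188 in ICGN against 837, 799.7 and 690.5 in ICR (-1.59 ± 0.22, adjusted p = 0.000918). Its twin Hspa1b read 1911, 1201 and 878 in ICGN against 4103, 4206 and 2434 in ICR (-1.44 ± 0.28, adjusted p = 0.00845). The coding sequences of the pair are nearly the same, so their signals are not independent. Hsph1, an exchange factor for Hsp70, read 950.4, 999 and 682 in ICGN against 1459.9, 1450.5 and 1372 in ICR (-0.70 ± 0.16, adjusted p = 0.0236; lost without ICGN replicates 1 or 3 or ICR replicates 1, 2 or 3, highest adjusted p = 0.105). The co-chaperone Dnajb1 was at -0.64 ± 0.16 (adjusted p = 0.034; lost without any 1 of the 6 arrays, highest adjusted p = 0.134; also with the mean of its probe sets, adjusted p = 0.0625). Other members did not pass, with Hspa8 at -0.62 ± 0.21 (adjusted p = 0.143), Dnaja1 at -0.55 ± 0.15 (adjusted p = 0.0558) and Hsp90aa1 at -0.10 ± 0.17 (adjusted p = 0.828). Among these were members known to be induced by stress, with Hspb1 at 0.16 ± 0.15 (adjusted p = 0.742), Bag3 at -0.11 ± 0.15 (adjusted p = 0.78) and Cryab at -0.46 ± 0.64 (adjusted p = 0.808). The fifth called member, Dnajc18, is a membrane-bound co-chaperone that read 16.8, 12.8 and 16.4 in ICGN against 287, 246 and 314 in ICR (-3.56 ± 0.48, adjusted p = 0.000827). All 3 ICGN arrays held it at or below their median, whereas every ICR array was above 200.

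Hspa1a and Hspa1b lie between the class I genes H2-K1 and H2-D1 on chromosome 17, where 4.73% of tested genes were called. Whether the strains differ in sequence in that region was not tested. The promoters of the 2 Hsp70 genes are shown because they were lower together and carry the same motif. They run from 250 bases before the transcription start to 50 after it in the RefSeq reference (GRCm38.p6), which is neither of these strains, and capitals mark the heat shock element GAANNTTC, searched on both strands after the data were seen. They differ at 4 of 300 bases, and each holds the element at 1 place, a palindrome read on both strands.
Hspa1a, chr17:34972107-34972406, minus strand: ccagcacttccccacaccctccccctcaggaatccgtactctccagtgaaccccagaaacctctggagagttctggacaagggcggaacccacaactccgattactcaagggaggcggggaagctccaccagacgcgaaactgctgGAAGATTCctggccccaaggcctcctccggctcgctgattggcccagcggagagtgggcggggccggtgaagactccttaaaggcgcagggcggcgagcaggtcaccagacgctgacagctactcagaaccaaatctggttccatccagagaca
Hspa1b, chr17:34959189-34959488, minus strand: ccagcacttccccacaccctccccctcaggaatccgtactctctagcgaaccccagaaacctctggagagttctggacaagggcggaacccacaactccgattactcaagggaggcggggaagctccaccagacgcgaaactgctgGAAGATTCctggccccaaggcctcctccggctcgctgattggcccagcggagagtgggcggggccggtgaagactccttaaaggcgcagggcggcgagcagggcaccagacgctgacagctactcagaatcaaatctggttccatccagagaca
The element was found in 7.86% of all RefSeq promoters, in 5.82% of those of tested genes, in 4.27% of those of genes called higher and in 7.65% of those of genes called lower.

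Of the lists tested, that of macrophage transcripts held the most genes called higher. Of 33 tested macrophage and monocyte genes 14 were called higher and 0 lower, beside 1.6% and 1.38% of all genes. In 22 of the 33 ICGN lay above ICR on every array and in 0 below, beside 10.8% and 12% of all genes. The list median was 0.76, with 30 members above 0. In whole cortex, fewer or more cells of a type and less or more RNA per cell cannot be told apart. Mpeg1, the pore-forming perforin 2 of macrophages, read 217, 252 and 279 in ICGN against 70.8, 89.5 and 100.2 in ICR (1.46 ± 0.20, adjusted p = 0.000904). The chains of complement C1q, made in tissue largely by macrophages, moved by nearly equal amounts: 1.26 ± 0.19 for C1qa, 1.25 ± 0.17 for C1qb and 1.26 ± 0.20 for C1qc (adjusted p = 0.00173, adjusted p = 0.0011 and adjusted p = 0.00296 in that order). C1qa read 503, 448 and 541 in ICGN against 215, 255 and 154 in ICR.

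Receptors of myeloid cells followed. Fcgr3, an immunoglobulin G receptor, was at 1.19 ± 0.21 (adjusted p = 0.00565), Cybb, the catalytic subunit of the phagocyte oxidase, at 1.08 ± 0.16 (adjusted p = 0.00158), and Cd14, the lipopolysaccharide co-receptor, at 0.95 ± 0.13 (adjusted p = 0.00121). Ms4a7, at 1.32 ± 0.20 (adjusted p = 0.002), and Chil4, at 3.15 ± 0.55 (adjusted p = 0.00559), were at or below the array median on all ICR arrays. Chil4, a chitinase-like protein linked to alternatively activated macrophages, read 233, 306 and 111 in ICGN against 30.4, 18.3 and 3.72 in ICR. Cd52 (1.36 ± 0.19, adjusted p = 0.00099) and Ly86 (0.99 ± 0.16, adjusted p = 0.0039), leukocyte surface genes outside the list that were chosen after their values were seen, were raised as well. The general markers Csf1r (-0.26 ± 0.16, adjusted p = 0.46), Adgre1 (0.65 ± 0.17, adjusted p = 0.0582) and Cd68 (0.69 ± 0.19, adjusted p = 0.0667) did not pass. The summed level of the list ran from 14552 to 17470 in ICGN and from 12515 to 13216 in ICR. At 8 weeks 28 of its members were called higher, against 8.51% of all genes, with a median of 1.47.

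**Figure D3:**
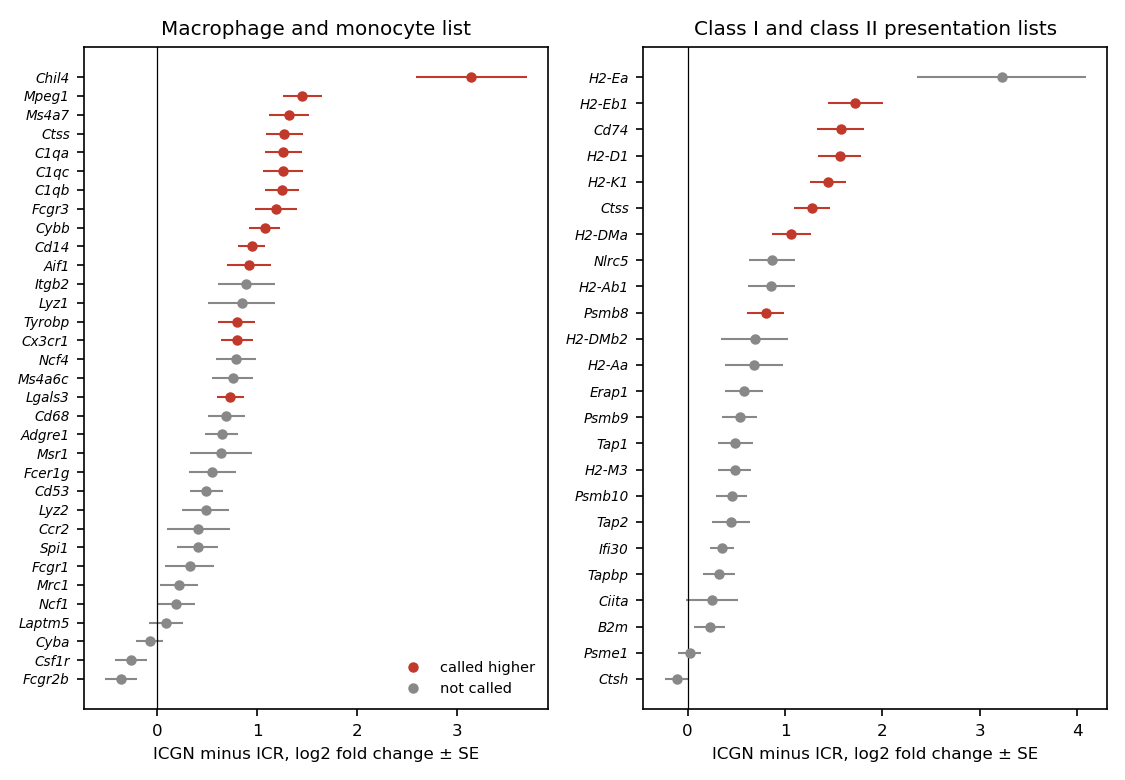
Log2 fold change of ICGN over ICR at 4 weeks with its SE for the 33 tested macrophage and monocyte genes (left) and the class I and class II presentation genes (right). Red points are called higher and grey points are not called. Of the macrophage genes 30 lie above 0, and H2-Ea, at 3.22, is the highest presentation gene but is not called.

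Antigen presentation genes rose as well, 4 of 11 class II genes and 3 of 13 class I genes, with medians of 0.86 and 0.49 and none called lower. H2-Eb1, a class II beta chain, read 984, 804 and 1591 in ICGN against 323, 285 and 373 in ICR (1.72 ± 0.28, adjusted p = 0.00372). Cd74, the invariant chain that guards the class II groove, read 1638, 1509.7 and 3274 in ICGN against 833, 557 and 670.1 in ICR (1.57 ± 0.24, adjusted p = 0.00206), and ICGN replicate 3 was highest for both. H2-DMa, which edits the peptides, was at 1.06 ± 0.20 (adjusted p = 0.00846), and the protease Ctss, which trims the invariant chain, at 1.28 ± 0.18 (adjusted p = 0.00123). The classical chains H2-Ab1 (0.86 ± 0.24, adjusted p = 0.0787) and H2-Aa (0.68 ± 0.29, adjusted p = 0.3) did not pass, nor did H2-Ea (3.22 ± 0.87, adjusted p = 0.0612), in spite of its size. The class II sum was 10082 to 15104 in ICGN and 7055 to 8374 in ICR.

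For class I, H2-K1 read 3771, 3723 and 4951 in ICGN against 1703, 1456 and 1440.2 in ICR, with no overlap (1.44 ± 0.19, adjusted p = 0.000812). H2-D1 read 319.8, 317 and 317 in ICGN against 122, 88.3 and 102 in ICR (1.56 ± 0.22, adjusted p = 0.00121), but its probe sets disagreed. With the mean of its probe sets in place of 1 the call was lost (adjusted p = 0.103). The values above come from the 1 probe set of 7 not marked by its name as sharing probes with other transcripts. Of the 7, 4 were called higher, the brightest at a mean of 5879 against 2369, and 2 were called lower, at 17.9 against 463 and 15.2 against 408. Class I genes are highly polymorphic, and whether the strains differ in the sequence under these probes was not tested. The immunoproteasome subunit Psmb8 was at 0.80 ± 0.19 (adjusted p = 0.035; lost without ICGN replicates 1, 2 or 3 or ICR replicates 2 or 3, highest adjusted p = 0.135). B2m, the light chain, was at 0.22 ± 0.16 (adjusted p = 0.629).

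The promoters of 4 immune genes called higher are shown with the motifs searched in them. Capitals mark the Y box ATTGG in H2-Eb1 (2 matches, 1 on each strand), a part of the class II control region, the NF-kB site (GGG and CC around any 5 bases) in H2-K1, and the interferon-stimulated response element (GAAA on each side of any 2 bases) in Gbp2, all searched on both strands. In Cxcl10 capitals mark both of the last 2. The response element was searched in H2-K1 too and had 0 matches there.
H2-Eb1, chr17:34305617-34305916, plus strand: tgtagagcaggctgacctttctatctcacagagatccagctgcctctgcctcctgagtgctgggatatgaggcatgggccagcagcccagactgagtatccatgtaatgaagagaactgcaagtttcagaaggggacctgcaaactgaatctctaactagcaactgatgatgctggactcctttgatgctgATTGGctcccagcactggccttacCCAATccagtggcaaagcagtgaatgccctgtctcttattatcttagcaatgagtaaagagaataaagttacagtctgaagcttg
H2-K1, chr17:34000298-34000597, minus strand: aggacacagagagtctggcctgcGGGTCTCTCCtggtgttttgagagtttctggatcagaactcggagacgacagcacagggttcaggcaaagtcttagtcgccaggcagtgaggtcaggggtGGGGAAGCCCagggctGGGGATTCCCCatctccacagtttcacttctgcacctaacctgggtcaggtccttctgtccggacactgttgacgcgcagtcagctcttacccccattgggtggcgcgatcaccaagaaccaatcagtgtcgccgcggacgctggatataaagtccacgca
Cxcl10, chr5:92348840-92349139, minus strand: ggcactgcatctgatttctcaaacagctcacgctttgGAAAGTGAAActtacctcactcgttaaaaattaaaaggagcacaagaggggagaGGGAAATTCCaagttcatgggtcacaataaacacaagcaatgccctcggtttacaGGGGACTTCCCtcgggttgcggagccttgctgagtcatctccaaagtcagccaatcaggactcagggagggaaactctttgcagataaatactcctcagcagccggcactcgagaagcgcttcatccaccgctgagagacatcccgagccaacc
Gbp2, chr3:142620413-142620712, plus strand: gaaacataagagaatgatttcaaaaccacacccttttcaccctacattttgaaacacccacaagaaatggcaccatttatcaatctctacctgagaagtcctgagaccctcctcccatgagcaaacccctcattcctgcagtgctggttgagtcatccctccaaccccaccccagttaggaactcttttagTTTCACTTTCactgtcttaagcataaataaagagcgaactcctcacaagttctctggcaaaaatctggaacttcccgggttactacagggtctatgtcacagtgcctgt
The H2-K1 promoter is 1 of 2 that RefSeq gives, and most of its matches overlap or are read on both strands. The Y box was found in 37.4% of all promoters, 37.1% of those of tested genes, 33.6% of those of genes called higher and 41.2% of those called lower. The NF-kB site was found in 50.8% of all promoters, 66.8% of those of tested genes, 59.7% of those of genes called higher and 60.6% of those called lower. Both called groups lay below the tested genes in this. The response element was found in 3.44%, 3.0%, 6.16% and 3.53% in the same order. Another 2 motifs were counted in that order too. The AP-1 site TGANTCA was found in 7.81%, 5.22%, 9.95% and 7.06%. The antioxidant response element TGACNNNGC was found in 12.4%, 14.3%, 16.1% and 15.3%. Of 369 called genes 288 had a promoter in the table, and these matches are descriptions of the reference sequence.

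Of 26 genes of chemokines and their receptors 5 were called higher and 0 lower, beside 1.6% and 1.38% of all genes. The list median was 0.52, and without ICGN replicate 2 the count called higher was 3. The summed level of the list overlapped, from 5272 to 6438 in ICGN and from 5422 to 6504 in ICR. Ccl2, the monocyte attractant, read 78.7, 96.8 and 135 in ICGN against 26.8, 20.7 and 19.04 in ICR (1.85 ± 0.34, adjusted p = 0.00761). Ccl5, which attracts T cells and monocytes, read 78.8, 79.6 and 203 in ICGN against 27.9, 15.04 and 1.78 in ICR (2.49 ± 0.47, adjusted p = 0.00862), with ICGN replicate 3 well above the other arrays. For both, all ICR arrays were at or below their median. Cxcl10, an interferon-induced attractant of T cells, read 163, 289 and 185 in ICGN against 62.5, 75.5 and 57.6 in ICR (1.56 ± 0.29, adjusted p = 0.0077; lost without ICGN replicate 2, adjusted p = 0.0501). Cx3cl1, fractalkine of endothelium and tubule, read 453, 436 and 468 in ICGN against 276, 262 and 292 in ICR (0.71 ± 0.12, adjusted p = 0.00398; lost with the mean of its probe sets, adjusted p = 0.144). Its myeloid receptor Cx3cr1 was at 0.80 ± 0.16 (adjusted p = 0.0133; lost without ICGN replicate 2 or ICR replicate 1, highest adjusted p = 0.0701).

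Of 33 interferon-stimulated genes 26 were called higher at 8 weeks, against 8.51% of all genes, with a median of 1.08. At 4 weeks 4 were called higher and 0 lower, beside 1.6% and 1.38% of all genes, with a median of 0.22. The GTPases Iigp1 (1.41 ± 0.27, adjusted p = 0.00938; lost without ICGN replicate 2, adjusted p = 0.0598) and Gbp2 (0.90 ± 0.22, adjusted p = 0.0404; lost without ICGN replicates 1, 2 or 3 or ICR replicates 2 or 3, highest adjusted p = 0.148), the transcription factor Irf1 (0.57 ± 0.13, adjusted p = 0.0241; lost without ICGN replicates 1, 2 or 3 or ICR replicates 2 or 3, highest adjusted p = 0.111) and the ubiquitin-like Ubd (1.83 ± 0.44, adjusted p = 0.0381; lost without ICGN replicates 2 or 3 or ICR replicates 1, 2 or 3, highest adjusted p = 0.106) were the 4. Ubd read 28.9, 77.1 and 231 in ICGN against 16.9, 16.5 and 18.5 in ICR, so the ICGN arrays were far apart, and all ICR arrays were at or below their median. Ifit1, a classical target of type I interferon, was at -0.04 ± 0.25 (adjusted p = 0.955). Of 22 innate sensor and NF-kB genes 5 were called higher, and Tnfaip3, the A20 feedback inhibitor of NF-kB, had the lowest adjusted p after Cd14, with 198, 180.4 and 217 in ICGN against 91.1, 95.4 and 106 in ICR (0.98 ± 0.15, adjusted p = 0.00248). The list gave 2 or 3 calls when any 1 of the 6 arrays was left out. Osmr, the oncostatin M receptor, read 348, 338 and 365 in ICGN against 179, 161 and 161 in ICR, with all arrays close within a strain (1.05 ± 0.14, adjusted p = 0.000812).

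The early proteases of the complement cascade fell where C1q rose. C1s1 read 6.22, 5.14 and 3.67 in ICGN against 237, 263 and 216 in ICR, the largest fall of any called gene (-4.12 ± 0.24, adjusted p = 2.58e-07), and it was again lower at 8 weeks (-3.92). The ICGN arrays lay at or below their median, so a size for the fall depends on the offset. Its neighbour C1ra was at -0.57 ± 0.14 (adjusted p = 0.0275; lost without ICGN replicates 1, 2 or 3 or ICR replicates 1 or 2, highest adjusted p = 0.109). Some lymphocyte genes were called, 3 of 10 and 1 of 8 by list, beside 2.98% of all tested genes. Of 10 T and NK cell genes Ccl5 and the general leukocyte gene Ptprc (0.70 ± 0.17, adjusted p = 0.0465; lost without ICGN replicates 1, 2 or 3 or ICR replicates 2 or 3, highest adjusted p = 0.183) were called higher and Ptpn22 lower, and of 8 B cell genes Blnk was called higher (0.71 ± 0.13, adjusted p = 0.00863). Ptpn22, a phosphatase of lymphocyte signalling, read 52.8, 40.7 and 77.7 in ICGN against 123, 313 and 409 in ICR (-2.001 ± 0.42, adjusted p = 0.0145; lost without ICGN replicates 1 or 2 or ICR replicates 2 or 3, highest adjusted p = 0.0803). Cd3e was at 1.30 ± 0.36 (adjusted p = 0.0743) and Cd8a at 0.36 ± 0.42 (adjusted p = 0.785).

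**Figure D4:**
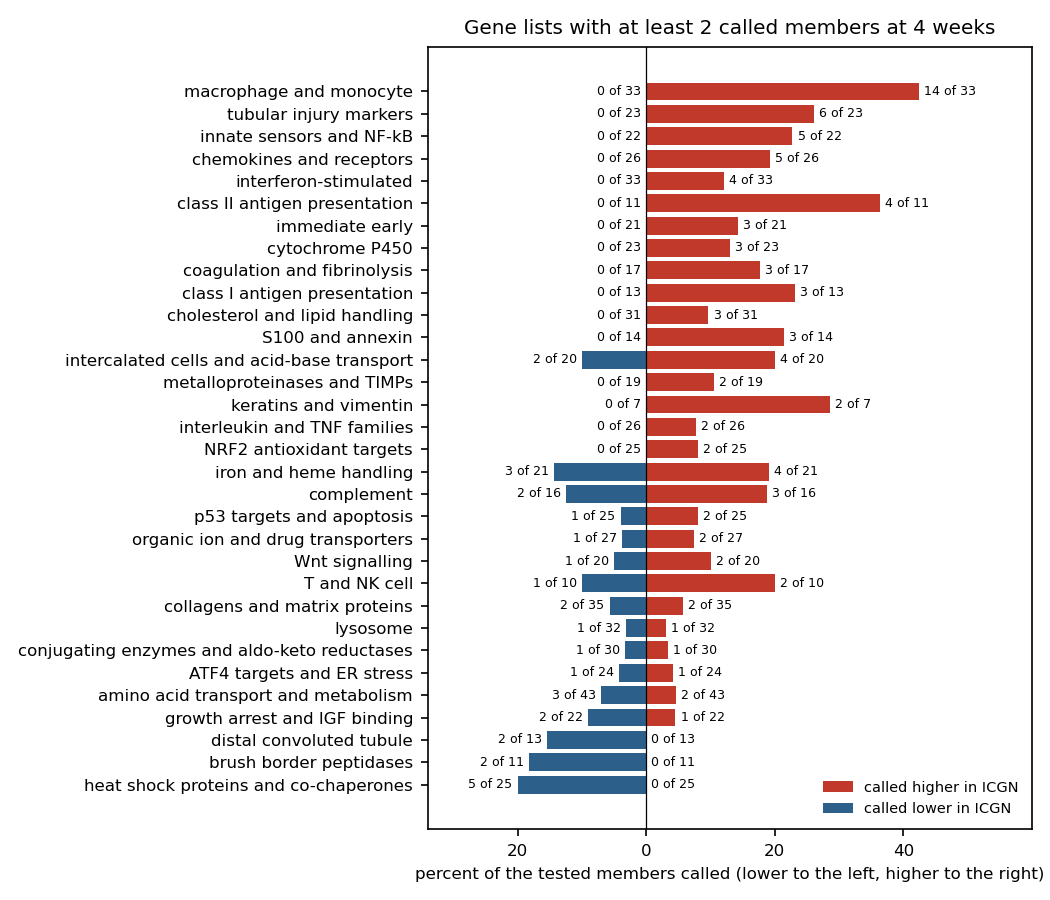
Percent of the tested members of each gene list called higher (red, to the right) or lower (blue, to the left) in ICGN at 4 weeks, with the counts, for lists with at least 2 called members. Macrophage and monocyte genes stand at the top with 14 of 33 higher, heat shock genes at the bottom with 5 of 25 lower, and all 12385 genes had 1.6% higher and 1.38% lower.

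No marker of the proximal tubule segments was called at 4 weeks, when 1.6% of all genes were called higher and 1.38% lower. With so small a share, lists of this size can hold no call. Of 23 early and 16 late segment genes 4 and 3 lay above 0, and the medians were -0.12 and -0.33. In 1 early and 4 late segment genes ICGN lay below ICR on every array and in 0 above, beside 12% and 10.8% of all genes. At 8 weeks 15 of the 23 and 13 of the 16 were called lower, against 26% of all genes. The protein uptake receptors Lrp2 (megalin, -0.13 ± 0.20, adjusted p = 0.809) and Cubn (cubilin, 0.00 ± 0.18, adjusted p = 0.977) did not pass, nor did the phosphate carrier Slc34a1 (-0.18 ± 0.12, adjusted p = 0.486) or the glucose carrier Slc5a2 (-0.68 ± 0.22, adjusted p = 0.108). Of 11 brush border enzymes 2 were lower, aminopeptidase N (Anpep, -0.62 ± 0.13, adjusted p = 0.0133; lost without ICGN replicate 2 or ICR replicate 1, highest adjusted p = 0.0698) and trehalase (Treh, -0.66 ± 0.15, adjusted p = 0.0239; lost without ICGN replicates 1 or 2 or ICR replicates 1 or 3, highest adjusted p = 0.12). Anpep read 533, 498 and 509 in ICGN against 855, 746 and 816 in ICR. In 5 of the 11 enzymes ICGN lay below ICR on every array and in 0 above. Of 38 oxidative phosphorylation genes and 20 of the citric acid cycle none was called, with a median of -0.09 for the first. At 8 weeks 31 and 16 were called lower, against 26% of all genes.

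Single metabolic genes differed by large amounts. Cyp24a1, the mitochondrial enzyme that inactivates vitamin D, read 2124, 3760.3 and 1846 in ICGN against 296, 588 and 486 in ICR (2.48 ± 0.41, adjusted p = 0.00338), 5.56-fold higher, and it was the 1 called gene among 17 of vitamin D, klotho and phosphate. Cyp27b1, which makes the active hormone, was at 0.56 ± 0.30 (adjusted p = 0.429) and only at 8 weeks was called higher (2.71). Hpd, an enzyme of tyrosine breakdown, read 2181, 3011 and 3113 in ICGN against 525, 771 and 907 in ICR (1.94 ± 0.27, adjusted p = 0.00099). Aldh1a1, which makes retinoic acid, read 779, 869 and 369.5 in ICGN against 239, 154 and 59.7 in ICR (2.20 ± 0.38, adjusted p = 0.00532), and the desaturase Scd1 read 1341, 2259 and 2838 in ICGN against 499, 829 and 439 in ICR (1.86 ± 0.31, adjusted p = 0.0038). In each of these the lowest ICGN array was above the highest ICR array. Gdpd3, a lysophospholipase D, read 1593, 1352 and 1232 in ICGN against 147, 540.1 and 220.3 in ICR (2.39 ± 0.31, adjusted p = 0.000812).

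Among the lower genes were several of high level. Nudt19, a peroxisomal coenzyme A hydrolase, read 3029, 2868 and 3477 in ICGN against 9242, 6722 and 7541 in ICR (-1.30 ± 0.17, adjusted p = 0.000812). Sult1c2, a sulfotransferase, read 1283, 1467 and 1463 in ICGN against 3394, 3126 and 3556 in ICR (-1.24 ± 0.21, adjusted p = 0.00328). Qdpr, which regenerates the cofactor of aromatic amino acid hydroxylases, was at -0.87 ± 0.15 (adjusted p = 0.0041), the growth factor Fgf1 at -1.04 ± 0.14 (adjusted p = 0.000812), and the monocarboxylate carrier family gene Slc16a4 at -0.91 ± 0.13 (adjusted p = 0.00121; lost with the mean of its probe sets, adjusted p = 0.0694). Rnf24 was at -1.57 ± 0.25 (adjusted p = 0.00248), the 1 call among 4 tested genes of the female-biased list. That list was split: in 2 of the 4 ICGN lay above ICR on every array and in 2 below. None of 13 male-biased genes was called at this age. At 8 weeks 11 of the 13 were called lower, against 26% of all genes. The sex of the mice is not in the labels, and its part in these values was not tested. The beta-galactosidase gene Glb1 was at -0.92 ± 0.18 (adjusted p = 0.00928; lost without ICGN replicates 1 or 2, highest adjusted p = 0.0586).

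In the distal convoluted tubule, which reclaims sodium chloride, 2 of 13 genes were lower and 0 higher. Pvalb, the calcium-binding parvalbumin of its early part, read 489, 359 and 315 in ICGN against 1246, 1500.0 and 1896 in ICR (-1.96 ± 0.18, adjusted p = 4.91e-05). Slc12a3, the thiazide-sensitive sodium chloride carrier, read 1329, 979 and 883 in ICGN against 1889.7, 2298 and 2737 in ICR (-1.10 ± 0.18, adjusted p = 0.00248). Calb1, of the later part, was at -0.24 ± 0.22 (adjusted p = 0.663), Umod of the thick limb at -0.16 ± 0.13 (adjusted p = 0.587) and Aqp2 of the collecting duct at 0.33 ± 0.26 (adjusted p = 0.672), and none of 13 thick limb or 14 principal cell genes was called. Both Pvalb (-2.75) and Slc12a3 (-1.01) were lower at 8 weeks too.

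Genes of intercalated cells, which move acid and base, went both ways, 4 higher and 2 lower of 20. The 4 higher calls became 0 without ICGN replicate 1 or 2, 1 without ICR replicate 1 or 2 and 2 without ICR replicate 3. The non-gastric proton pump gene Atp12a read 25.5, 18.7 and 26.2 in ICGN against 89.1, 137 and 149 in ICR (-2.005 ± 0.30, adjusted p = 0.00148). Its ICGN arrays were at or below their median. The proton pump subunit Atp6v0a4 read 468, 429 and 672 in ICGN against 971, 1018 and 1181 in ICR (-1.01 ± 0.19, adjusted p = 0.00846; lost without ICGN replicate 2, adjusted p = 0.0554), whereas another subunit, Atp6v0d2, was higher (0.79 ± 0.16, adjusted p = 0.0133; lost without ICGN replicates 1 or 2 or ICR replicate 2, highest adjusted p = 0.0757). The carbonic anhydrase Car15 (0.72 ± 0.15, adjusted p = 0.0162; lost without ICGN replicates 1 or 2 or ICR replicates 1 or 2, highest adjusted p = 0.097), the vesicle channel Aqp6 (0.67 ± 0.16, adjusted p = 0.042; lost without ICGN replicates 1 or 2 or ICR replicates 1 or 3, highest adjusted p = 0.199) and the ammonia channel Rhbg (0.61 ± 0.15, adjusted p = 0.0413; lost without ICGN replicates 1 or 2 or ICR replicates 1, 2 or 3, highest adjusted p = 0.208) were the other 3 called higher. The Ptgds transcript, a prostaglandin D synthase listed with the inner medulla, read 139, 161 and 228 in ICGN against 626, 442 and 472 in ICR (-1.49 ± 0.22, adjusted p = 0.00121). All 9 tested inner medulla and thin limb genes lay below 0 and summed to 3173 to 3975 in ICGN and 4225 to 5228 in ICR, and how deep the cortex was cut was not tested.

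Genes of the growth hormone and IGF axis differed between the strains at 4 weeks. Igf1, insulin-like growth factor 1, read 283, 303 and 289.5 in ICGN against 712, 865 and 618 in ICR (-1.27 ± 0.13, adjusted p = 0.000119). Socs2, a feedback inhibitor induced by growth hormone, read 108, 82.96 and 200.2 in ICGN against 411, 369 and 355 in ICR (-1.54 ± 0.22, adjusted p = 0.00099). Igfbp1, a binding protein that holds IGF inactive and is known to rise in fasting, read 399, 496 and 449.8 in ICGN against 36.2, 103 and 99.6 in ICR (2.49 ± 0.30, adjusted p = 0.000529), 5.63-fold higher. No array of a strain overlapped the other strain in any of the 3, and Ghr, the growth hormone receptor, was at -0.20 ± 0.13 (adjusted p = 0.46). Of 22 genes of growth arrest and IGF binding, 1 was called higher and 2 lower, the third being Mest (-0.49 ± 0.13, adjusted p = 0.0479; lost without any 1 of the 6 arrays, highest adjusted p = 0.165). Mitosis genes were not called, 0 of 29, although 2 alone lay above 0 and the median was -0.29, and of 29 S phase genes Rrm2, a subunit of ribonucleotide reductase, was lower (-0.85 ± 0.17, adjusted p = 0.011; lost without ICGN replicates 1 or 2 or ICR replicate 3, highest adjusted p = 0.0682).

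Of 25 p53 targets and apoptosis genes 21 lay above 0 with a median of 0.35, and 2 were called higher and 1 lower. Cdkn1a, the cell cycle inhibitor p21, read 640.2, 518 and 272 in ICGN against 198, 208 and 167 in ICR (1.22 ± 0.25, adjusted p = 0.0133; lost without ICGN replicates 1 or 2 or ICR replicate 3, highest adjusted p = 0.0762). Zmat3, a p53-induced RNA-binding protein, was at 0.74 ± 0.18 (adjusted p = 0.0452; lost without ICGN replicates 1 or 2 or ICR replicates 1 or 2, highest adjusted p = 0.185). The proapoptotic gene Bik read 28.3, 24.99 and 19.6 in ICGN against 77.3, 137 and 129 in ICR (-1.84 ± 0.25, adjusted p = 0.000827), at or below the median on all ICGN arrays. Of 21 immediate early genes, which also respond to handling of the tissue, Atf3 (1.63 ± 0.41, adjusted p = 0.046; lost without ICGN replicates 1, 2 or 3 or ICR replicates 1 or 2, highest adjusted p = 0.171), Egr1 (1.16 ± 0.24, adjusted p = 0.0169; lost without ICGN replicates 2 or 3 or ICR replicates 2 or 3, highest adjusted p = 0.101) and Myc (1.004 ± 0.23, adjusted p = 0.0302; lost without ICGN replicates 1, 2 or 3 or ICR replicates 2 or 3, highest adjusted p = 0.122) were called higher, and the part of handling was not tested.

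Matrix genes were called in both directions at 4 weeks, 2 higher and 2 lower, beside 1.6% and 1.38% of all genes. Of 35 collagens and matrix proteins 10 lay above 0, and the median was -0.25. In 11 of the 35 ICGN lay below ICR on every array and in 3 above, beside 12% and 10.8% of all genes. Col3a1, the fibrillar collagen III, read 3613, 3250.0 and 3162 in ICGN against 4448, 5820.1 and 4212 in ICR and was called lower (-0.50 ± 0.13, adjusted p = 0.0404; lost without ICGN replicates 1, 2 or 3 or ICR replicates 1 or 2, highest adjusted p = 0.171), and elastin (Eln) was called lower too (-0.49 ± 0.13, adjusted p = 0.0404; lost without ICGN replicates 1, 2 or 3 or ICR replicates 2 or 3, highest adjusted p = 0.163). The Col3a1 call was also lost under quantile normalization (adjusted p = 0.112) and the authors' scaling (adjusted p = 0.0516), and the Eln call under the authors' scaling (adjusted p = 0.0553). Tgfbi (0.67 ± 0.17, adjusted p = 0.0485; lost without any 1 of the 6 arrays, highest adjusted p = 0.196) and Col18a1 (0.49 ± 0.12, adjusted p = 0.042; lost without ICGN replicates 1, 2 or 3 or ICR replicates 1 or 3, highest adjusted p = 0.188) were called higher. Col1a1 was at -0.40 ± 0.22 (adjusted p = 0.417). None of 30 genes of TGF-beta signalling was called, and of 19 metalloproteinases and their inhibitors the macrophage elastase Mmp12 (0.87 ± 0.20, adjusted p = 0.0276; lost without ICGN replicates 1, 2 or 3 or ICR replicates 2 or 3, highest adjusted p = 0.104) and its neighbour Mmp13, a collagenase (1.14 ± 0.24, adjusted p = 0.0153; lost without ICGN replicates 1 or 2 or ICR replicate 2, highest adjusted p = 0.0926), were higher. By 8 weeks 21 of the 35 matrix genes were called higher and 0 lower, against 8.51% and 26% of all genes, with a median of 0.85. None of the 6 adipocyte genes was called, all lay below 0 with a median of -0.61, and they summed to 5753 to 6934 in ICGN and 8293 to 11686 in ICR. Their part in the other results was not tested.

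At 8 weeks the 4-week differences were partly seen again, in arrays that had no part in the 4-week means but shared the estimate of spread. Of the 198 genes called higher 123 were called higher at 8 weeks, or 62.1%, and of the 171 called lower 120 were called lower, or 70.2%, against 8.51% and 26% of all genes. Those shared genes were 11.7% of the genes called higher at 8 weeks and 3.72% of those called lower. The median of the genes called higher was 0.97 at 4 weeks and 1.02 at 8 weeks, and that of the genes called lower -0.84 and -0.61. At 8 weeks printed fold changes are relative to a median shift of -0.19, while the tests are on the difference before that subtraction.

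**Figure D5:**
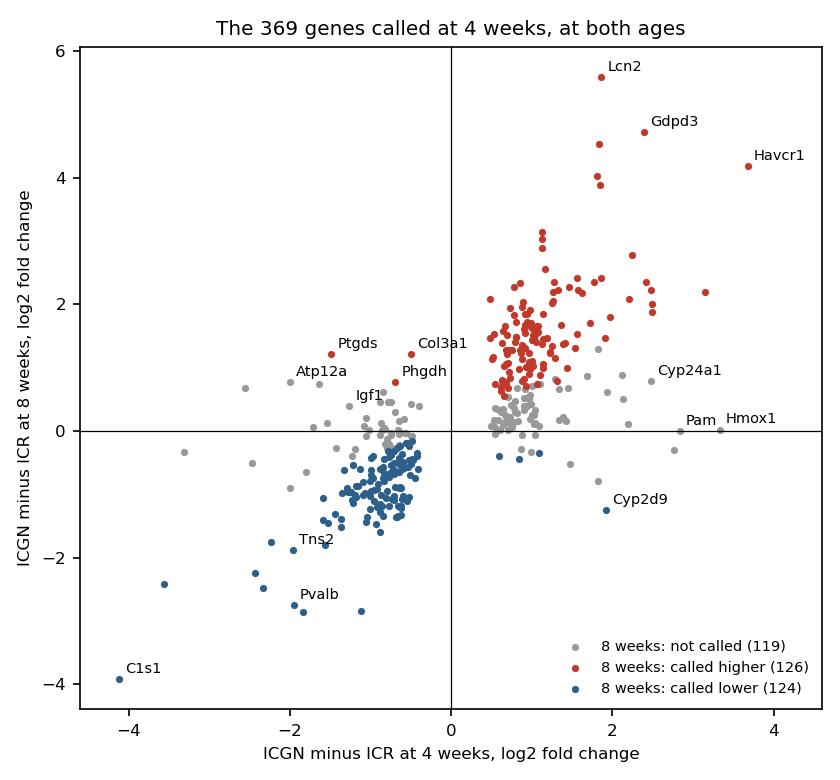
Log2 fold change of ICGN over ICR at 4 weeks (x axis) and 8 weeks (y axis) for the 369 genes called at 4 weeks, coloured by the call at 8 weeks. Of these, 126 are called higher at 8 weeks, 124 lower and 119 neither, and Hmox1 (3.33 and 0.02) and Pam lie on the line of no difference at 8 weeks.

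A test of the difference between the ages called 972 genes (7.85%), 271 with a more positive value at 8 weeks (2.19%) and 701 with a more negative one (5.66%), and 82 of them were among the 369. The median change over all tested genes was -0.17. Printed changes have that median subtracted, while the test was on the change before, so the shift has a part in the excess of negative calls. Some 4-week differences were not called at 8 weeks. Hmox1 was at 0.02 then, a change of -3.31 (adjusted p = 0.00413), and Igf1 was at 0.39, a change of 1.66 (adjusted p = 0.0011). Pam, which amidates peptide hormones, read 918, 800.0 and 1092 in ICGN against 362, 75.2 and 66.7 in ICR at 4 weeks (2.83 ± 0.42, adjusted p = 0.00156) and was at 0.00 at 8 weeks, a change between the ages of -2.83 (adjusted p = 0.0101 for the change). Others widened: Lcn2 by 3.74 (adjusted p = 0.00147), Ccl2 by 2.05 (adjusted p = 0.0289), Cp by 2.02 (adjusted p = 0.00213) and Cd44 by 1.92 (adjusted p = 0.00255). This test uses the same 4-week arrays that gave the calls at 4 weeks.

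In 7 genes the call at 8 weeks was opposite. Cyp2d9, a cytochrome P450 of the male mouse, read 188, 244 and 328 in ICGN against 43.8, 55.5 and 86.8 in ICR at 4 weeks (1.91 ± 0.28, adjusted p = 0.00164) and was at -1.25 at 8 weeks. Rhebl1 (1.09 and -0.34), 4931408D14Rik and Fam214a (0.59 and -0.40; lost without any 1 of the 6 arrays, highest adjusted p = 0.143; also with the mean of its probe sets, adjusted p = 0.193 at 4 weeks) turned the same way. Ptgds (-1.49 and 1.21), Col3a1 (-0.50 and 1.22) and Phgdh (-0.69 and 0.77; lost without ICGN replicate 2, adjusted p = 0.0556; also with the mean of its probe sets, adjusted p = 0.536 at 4 weeks), the first enzyme of serine synthesis, were lower and then higher.

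Probe sets of one gene mostly moved together. Of 229 further tested probe sets of the called genes 196 had the same sign, 65 were called the same way and 5 the opposite way. In 5 genes, H2-D1, Mmut (lost without ICGN replicates 1 or 2 or ICR replicates 2 or 3, highest adjusted p = 0.139; also with the mean of its probe sets, adjusted p = 0.326), Myo6, Phgdh and Qprt, probe sets were called in both directions. Qprt, of tryptophan breakdown, was lower by 1 (831 against 1394) and higher by the other (801 against 138, adjusted p = 2.26e-06 over all probe sets). The mean of both was called higher (adjusted p = 0.00184). The direction of these genes is uncertain. Of the genes named here, Akr1c12, Akr1c13, Alas1, Aqp6, Atf3, C1ra, Col3a1, Dnajb1, Edn1, Eln, Fam214a, Gbp2, Hfe, Icam1, Mest, Mmp12, Myc, Psmb8, Ptprc, Rhbg, Tgfbi, Ubd and Zmat3 lost their call with no filter on dim probe sets. With no mean-variance trend in the fit Akr1c13, Alas1, Aqp6, Atf3, Col18a1, Col3a1, Dnajb1, Eln, Fam214a, Gbp2, Hfe, Hsph1, Icam1, Mest, Mmut, Psmb8, Ptprc, Rhbg, Tgfbi, Treh, Ubd and Zmat3 lost theirs. The calls of Atf3, Lcn2, Mest and Tgfbi were lost with no offset, and that of Ubd with 4 times the offset. With the 6 arrays of 4 weeks alone Aqp6, Atf3, Col3a1, Dkk3, Mmp12, Rhbg and Treh lost theirs. The replicate number as a block removed the calls of Akr1c13, C1ra, Col18a1, Edn1, Eln, Fam214a, Gsta4, Mest, Mmp12, Ptprc, Rhbg, Tgfbi, Wif1 and Zmat3. A stricter filter removed those of Mest and Ubd. Among all 24790 tested probe sets 281 were called higher (1.13%) and 291 lower (1.17%), together 2.31%.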

How the data were processed

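Each of the 45101 probe sets has a signal intensity on a linear scale that the authors deposited. The submitters' processing notes name MAS5, with no version. In the deposited intensities the mean after trimming 2% at each end was alike within an age but not between ages, so the 12 arrays were scaled to 1 median, 40.4, and log2(signal + 9) was taken. The offset is the 25th percentile of the table, and it makes fold changes of dim genes smaller.

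A probe set was tested if at least 3 of the 12 arrays held it above their median. GEO's platform annotation names a single gene for 34958 probe sets, more than 1 for 932 and no gene for 9211, and RefSeq (GRCm38.p6) matched 34754. A gene was represented by its brightest tested probe set, where those whose names mark probes shared between transcripts (_x_at) were used only for genes with no other. In R 4.3.3, limma 3.58.1 (lmFit, and eBayes with a mean-variance trend) fitted 4 group means to the 12 arrays, with 8 residual degrees of freedom, and Benjamini-Hochberg adjustment ran over all 12385 genes. Printed fold changes have the median of their comparison subtracted (-0.018 at 4 weeks), and tests do not. The fit was tested on simulated data. Of planted log2 changes of 0.5, 1 and 2 it called 17 of 67, 50 of 65 and 61 of 65 the right way. It also called 8 of 12046 genes with no planted change. Most planted changes of 0.5 were thus missed, so a gene not called may still differ by that much. The 68 gene lists held 1448 genes, 1170 of them tested, and 19 lists had no called member. These lists and members were chosen with earlier results of these data known.

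Genes were named by a rule: the tensins, the neighbours of Tns2, the 25 highest and 25 lowest called genes, called members of each list with uncalled ones for description, the genes whose difference changed most with age or turned direction, and genes with probe sets called both ways. A part of these is printed. Akr1c12, Akr1c13, Cd52, Edn1, Ednrb, Fam214a, Fgf1, Hfe, Lama3, Ly86, Mterf2, Nudt19, Qdpr, Slc16a4, Timd2 and Tmem263 lie outside it and were chosen after their values were seen.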

Additional observations from a re-analysis of the deposited data

Results flagged for a closer look

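The difference between the strains itself differed between 4 and 8 weeks for 972 of 12385 genes, by the interaction term of the limma fit at an adjusted p of 0.05 or less. For the genes named above with such a call the change, 8 weeks minus 4 weeks on the log2 scale and relative to the median gene, is given here, and the cause was not tested. The calls themselves were made before the median change of -0.17 was subtracted. Genes higher in ICGN at 4 weeks whose difference grew were Anxa3 (1.06), Ccl2 (2.05), Cd44 (1.92), Col18a1 (0.98), Cp (2.02), Ctss (1.08), Egr1 (1.41), Gdpd3 (2.33), Lcn2 (3.74), Tgfbi (0.99), Tnfaip3 (0.94), Ubd (2.72) and Vim (0.76). Those whose difference shrank or turned were 4931408D14Rik (-1.27), Cpox (-1.10), Cyp2d9 (-3.16), Ednrb (-0.90), Fam214a (-0.98), Hmox1 (-3.31), Hpd (-1.31), Lama3 (-1.15), Pam (-2.83), Rhbg (-0.58), Rhebl1 (-1.43), Sema3g (-0.77) and Timd2 (-1.98). Among genes lower in ICGN at 4 weeks the difference moved upward for Atp12a (2.78), Cd99 (3.25), Col3a1 (1.72), Eln (0.93), Igf1 (1.66), Phgdh (1.47), Ptgds (2.71), Rrm2 (1.48) and Socs2 (1.67), and it moved further down for Anpep (-0.56), Pvalb (-0.79) and Treh (-0.67). Genes not called at 4 weeks gave Anxa2 (1.002), Clu (1.62), Col1a1 (1.79), Cyp27b1 (2.15), Ghr (-0.51), Nqo1 (-0.77), Slc7a12 (4.69), Tns1 (-0.49) and Vcam1 (2.61).

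Of 2964 tested probe sets without a single gene name 42 were called higher in ICGN and 36 lower, and none of them enters the counts of genes.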

How the results depend on the processing

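The 18 alternatives changed how many genes passed more than which way they went. Of the 369 called genes 119 stayed called under each alternative that tested them, 66 higher and 53 lower, and 6 had the opposite sign under at least 1. Against 198 higher and 171 lower, quantile normalization gave 338 higher, the authors' scaling 338 higher, weights per array 406 higher and 426 lower, and the 6 arrays of 4 weeks alone 259 lower. Leaving out 1 array gave 89 to 167 higher, 79 to 145 lower, 465 to 789 genes in the test of the ages (972 with all arrays) and 117 to 187 genes called the same way at 8 weeks (243). Array weights gave 1652 and 499 for the last pair. The 6 arrays alone give no value for the test of the ages. The share of calls that were higher was 53.7% and ranged from 47.0% to 62.2%. With the mean of a gene's probe sets, H2-D1 turned to -0.90, Mmut to 0.33, Phgdh to 0.32 and Qprt to 0.88, where probe sets disagree. Of 124 called genes named, 66 kept their call throughout, 53 lost it without some array and 39 under another alternative, 23 of these without a filter and 22 without the trend. In lists, counts of genes called higher ranged from 11 to 17 for macrophage genes, from 4 to 8 for tubular injury markers, from 3 to 8 for chemokines and from 2 to 8 for innate genes, and counts called lower from 3 to 8 for heat shock genes. With the replicate number as a block 171 genes were higher and 186 lower, 292 of the 369 among them. Deviations of same-numbered arrays correlated at 0.054, -0.0909 and 0.077, and those of different-numbered arrays at -0.125 to 0.071. The labels do not say whether the numbers pair the samples. Correlations over all genes could miss a factor that touches few of them, so they do not settle it. Signal near the array median limits 26 genes called higher, whose ICR arrays all lay there or below, and 12 called lower, whose ICGN arrays did.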

Other observations

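With 2.98% of all genes called, some called genes adjoin another in any order, and how many was not worked out. Called genes that lie next to each other among the tested genes of a chromosome numbered 51 of the 368 that could be placed. In such a run of 3, the clock repressor gene Cry1 read 146, 129.9 and 112 in ICGN against 58.7, 28.4 and 43.3 in ICR (1.45 ± 0.29, adjusted p = 0.0128; lost without ICGN replicates 1 or 2 or ICR replicate 2, highest adjusted p = 0.0654), and its neighbours Tmem263 (1.03 ± 0.13, adjusted p = 0.000812) and Mterf2 (1.02 ± 0.14, adjusted p = 0.00121) were higher as well. Cry1 was the 1 called gene among 16 of the circadian clock, and time of sampling was not tested. The share of tested genes called ran from 1.46% on chromosome 16 to 5.07% on chromosome 13 among the autosomes.

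Some of the largest differences lay in genes outside the groups described. Cd99, a leukocyte adhesion glycoprotein, read 19.3, 21.9 and 85.4 in ICGN against 242, 259 and 255 in ICR (-2.56 ± 0.41, adjusted p = 0.00234), with ICGN replicate 3 apart from the other ICGN arrays, and at 8 weeks it was at 0.69 and not called. Snap91, a clathrin assembly protein of nerve endings, read 69.7, 74.2 and 56.6 in ICGN against 218, 589 and 333 in ICR (-2.23 ± 0.29, adjusted p = 0.000812) and was again called lower at 8 weeks (-1.75). Wif1, a secreted Wnt inhibitor, was at 1.53 ± 0.34 (adjusted p = 0.0211; lost without ICGN replicates 1 or 3 or ICR replicates 1 or 3, highest adjusted p = 0.1), and Frzb, another, at -0.86 ± 0.16 (adjusted p = 0.0083; lost without ICGN replicate 2, adjusted p = 0.0506), while Dkk3 was at 0.71 ± 0.15 (adjusted p = 0.0186; lost without ICGN replicates 2 or 3 or ICR replicates 1 or 2, highest adjusted p = 0.0759), the 3 calls among 20 genes of Wnt signalling. Lhx1, a transcription factor of the embryonic kidney, read 125, 118 and 86.02 in ICGN against 192, 273 and 266 in ICR and was called lower (-1.07 ± 0.16, adjusted p = 0.00146), the 1 call among 20 kidney transcription factors. The amino acid carrier gene Slc7a12 missed the threshold at 4 weeks (-1.37 ± 0.37, adjusted p = 0.0566) and was called higher at 8 weeks (3.31).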
